A study of Mus musculus with 3 samples.

Results

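Shared intergenic sites are described here for CUT&RUN of Foxp3 in macrophages grown from mouse bone marrow (BMDM). A site was taken where a peak of replicate 1 and a peak of replicate 2 overlapped by at least 50% of both lengths on chromosomes 1 to 19 or X, and where the summit in replicate 2 lay outside every protein-coding gene, more than 1000 bp and at most 50000 bp from the nearest end of one. The sites were thus chosen by where peaks were called and by their overlap, which are measured values, so counts of them are descriptions. They number 5924 of the 31111 shared sites (19.04%, exact 95% binomial interval 18.6 to 19.5%). The other shared sites were 8629 within 1000 bp of a gene end, 10959 inside a gene and 5599 farther than 50000 bp from any gene.

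The macrophages had been grown from bone marrow in medium conditioned with M-CSF, the growth factor that drives macrophage differentiation, and were lightly fixed with formaldehyde. In CUT&RUN an antibody bound to its target in permeabilised cells recruits a nuclease, and the DNA that is cut free around the target is sequenced. Both libraries used here were made with the Foxp3 antibody FJK-16s, and a library made with an isotype IgG was not analysed here. The title of the series speaks of stimulation with danger signals derived from brain, whereas the sample labels do not say which cells received it, and they give no genotype, age or culture of origin for the replicates, so that the spread between replicates may be technical.

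Foxp3 belongs to the forkhead transcription factors and is the lineage factor of regulatory T cells. Transcription factors bind promoters, at the starts of genes, and enhancers, which can lie far away in intergenic DNA and act on genes at a distance. The nearest gene is therefore a name for a site and not its shown target. Intergenic DNA also holds genes that make no protein, among them lncRNA and miRNA genes and the tRNA, 5S rRNA, 7SK and 7SL genes. The last 4 kinds are short, often present in many copies, and are transcribed by RNA polymerase III.

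The sequences that follow show 5 lncRNA promoters that a shared intergenic site overlapped with the summits of both replicates inside the window. Each window runs from 250 bases before to 50 bases after a transcription start in RefSeq (build GRCm38.p6, whose coordinates are those of mm10). Letters are 5′ to 3′ along the transcript, and capitals mark the bases from one replicate's summit to the other's. The first 4 are among the strongest such sites, and the last was the only one of the 37 promoter windows with both summits inside that held a forkhead word.
Ftx, chrX:103623705-103624004, minus strand: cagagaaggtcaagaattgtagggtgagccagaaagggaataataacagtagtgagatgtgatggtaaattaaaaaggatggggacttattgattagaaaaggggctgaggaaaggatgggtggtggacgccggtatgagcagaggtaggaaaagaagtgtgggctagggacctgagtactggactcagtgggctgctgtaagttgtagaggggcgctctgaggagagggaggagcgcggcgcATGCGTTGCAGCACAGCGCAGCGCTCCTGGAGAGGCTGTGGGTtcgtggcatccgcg
Snhg15, chr11:6528711-6529010, minus strand: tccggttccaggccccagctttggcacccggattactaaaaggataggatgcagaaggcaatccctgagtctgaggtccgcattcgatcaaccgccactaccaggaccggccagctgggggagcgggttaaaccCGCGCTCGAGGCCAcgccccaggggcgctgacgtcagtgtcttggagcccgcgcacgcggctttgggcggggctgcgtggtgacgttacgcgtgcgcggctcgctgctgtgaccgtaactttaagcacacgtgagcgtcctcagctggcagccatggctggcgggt
5730405O15Rik, chrX:13041765-13042064, plus strand: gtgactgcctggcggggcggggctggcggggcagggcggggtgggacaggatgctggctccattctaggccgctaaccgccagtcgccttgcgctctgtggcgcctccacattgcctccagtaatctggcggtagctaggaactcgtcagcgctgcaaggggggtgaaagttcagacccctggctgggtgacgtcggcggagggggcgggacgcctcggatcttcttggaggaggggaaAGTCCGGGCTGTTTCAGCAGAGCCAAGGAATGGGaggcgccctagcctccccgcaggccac
2900076A07Rik, chr7:81523300-81523599, plus strand: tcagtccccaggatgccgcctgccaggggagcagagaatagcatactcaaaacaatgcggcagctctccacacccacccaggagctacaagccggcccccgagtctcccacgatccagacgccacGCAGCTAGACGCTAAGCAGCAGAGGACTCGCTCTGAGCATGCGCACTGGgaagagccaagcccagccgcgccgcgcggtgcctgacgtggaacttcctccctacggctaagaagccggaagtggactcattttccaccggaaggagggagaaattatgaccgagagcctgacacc
Gm33154, chr3:29045498-29045797, minus strand: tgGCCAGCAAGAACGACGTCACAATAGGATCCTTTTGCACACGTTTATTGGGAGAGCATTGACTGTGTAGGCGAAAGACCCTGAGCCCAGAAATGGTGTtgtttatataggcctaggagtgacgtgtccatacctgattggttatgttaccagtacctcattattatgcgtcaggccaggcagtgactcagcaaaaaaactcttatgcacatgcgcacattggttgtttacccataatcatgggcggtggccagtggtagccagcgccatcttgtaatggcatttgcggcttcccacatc

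Ftx is a non-coding gene of the X-inactivation centre, and Snhg15 is the host of a small nucleolar RNA. Fold enrichment is the pileup of fragments at the summit divided by the library's own background, and is given for replicate 1 and then replicate 2. Ftx had 24.3 and 6.48, with 91 and 32 fragments over the summits. The summits in Ftx lay 42 bp apart. At Snhg15 the fold enrichment was 12.8 and 7.35, and the summits lay 13 bp apart. 5730405O15Rik had 21.3 and 7.46, and 2900076A07Rik had 13.7 and 9.03. The Gm33154 site was weaker, with 4.23 and 3.34. In the Gm33154 window the word TGTTTAT spanned positions 100 to 106 and the word TGTTTAC positions 225 to 231, counted from 1 at the 5′ end, and both lay outside the capitals, which end at position 99.

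In all, 117 promoter windows of 108 lncRNA genes were overlapped by a shared intergenic site. They were rich in G and C, with a median of 59.7% against 48.0% in the 3907 lncRNA windows that lie 1000 to 50000 bp from protein-coding genes and 53.0% in all 32619 RefSeq windows of the same length. The forkhead words TGTTTAC and TGTTTAT, searched on both strands, cannot coincide, because they differ in the last base. At least 1 of them was found in 8 of the 117 windows (6.84%), against 11.1% of the lncRNA windows in the same intergenic zone and 8.0% of all windows. The PU.1 word AGGAAGT was found in 8.55% of the 117, against 10.1% and 9.38%. The AP-1 word TGACTCA was found in 4.27%, against 7.14% and 5.22%. The CTCF word AGGGGGC was found in 14.5%, against 5.22% and 10.7%. These matches are letters in a window and show neither a bound site nor the absence of one. Other lncRNA promoters at strong shared sites were those of Dancr, with fold enrichments of 19.2 and 5.85, Chaserr, with 14.5 and 6.32, and Mir9-3hg, with 18.1 and 5.57.

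Of the miRNA genes in the intergenic zone, 17 had a shared site with its summit within 1000 bp, and 15 of these matched a mature sequence in RefSeq. The 8 mature arms shown have the seed (bases 2 to 8), which pairs with target RNAs, in capitals.
mmu-let-7i-5p: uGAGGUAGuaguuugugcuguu
mmu-miR-9-5p: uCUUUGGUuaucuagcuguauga
mmu-miR-7a-5p: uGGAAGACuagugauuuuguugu
mmu-miR-203-3p: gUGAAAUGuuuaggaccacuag
mmu-miR-193a-3p: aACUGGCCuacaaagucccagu
mmu-miR-760-3p: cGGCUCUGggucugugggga
mmu-miR-7671-5p: aGGCUCCGcucuggcuagcuucc
mmu-miR-6236: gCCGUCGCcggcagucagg

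No seed is shared among these 8 sequences. The miR-9-5p sequence comes from both Mir9-1 and Mir9-3, which lie on different chromosomes. The summit at Mir9-1 was 53 bp from the annotated hairpin, with fold enrichments of 6.65 and 5.99, and that at Mir9-3 was 388 bp away, with 6.66 and 4.49. The site at Mirlet7i was 732 bp away and had 7.61 and 6.76. Mir7-2 had 9.53 and 4.37 at 79 bp, and Mir203 had 5.54 and 4.33 at 57 bp. Mir760 had 14.5 and 6.62, and Mir193a had 13.1 and 4.97. Mir7671, which lies before the start of Irf1, had 10.2 and 4.82. Mir6236 lay under the summit of one of the strongest of all shared intergenic sites, with 38.4 and 14.1.

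The 5924 sites were weaker than shared sites at gene ends. In replicate 1 their median fold enrichment was 7.84 (quartiles 5.28 and 11.4, range 2.07 to 60.4), and in replicate 2 it was 4.32 (quartiles 3.73 and 5.30, range 2.08 to 42.4). At gene ends the medians were 11.8 and 5.59, inside genes 7.58 and 4.32, and beyond 50000 bp 8.90 and 4.71. Pileups had medians of 35 and 23 fragments, and peak lengths had medians of 277 and 257 bp. Since a peak was called only from 10 fragments in replicate 1 and 13 in replicate 2, sites of lower coverage could not enter. The libraries held 33294105 and 34898401 fragments and gave 556535 and 95135 peaks.

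Replicate 2 supplied 21693 peaks in the intergenic zone, of which 27.3% (26.7 to 27.9%) were shared by the rule, and replicate 1 supplied 137608, of which 4.31% were. Of the replicate 2 peaks 60.1% were shared at gene ends, 28.3% inside genes and 27.9% beyond 50000 bp. In the zone the shared portion was 58.7% for the 10% of replicate 2 peaks with the highest fold and 14.7% for the 10% with the lowest. Another 4222 replicate 2 peaks of the zone overlapped a replicate 1 peak, but by less than 50% of the longer peak.

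Fold enrichment was higher in replicate 1 at 5157 of the 5924 sites (87.1%). Spearman's rho between the replicates was 0.39 over the sites, which share their libraries and are not independent replicates, and 0.50 over all 31111 shared sites. The summits were 58 bp apart in the median and within 100 bp at 70.8% of the sites, against 105 bp and 48.6% at gene ends, where the shared peaks were longer. In both replicates 1662 sites reached a fold enrichment of 5 and 39 reached 10.

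**Figure D1:**
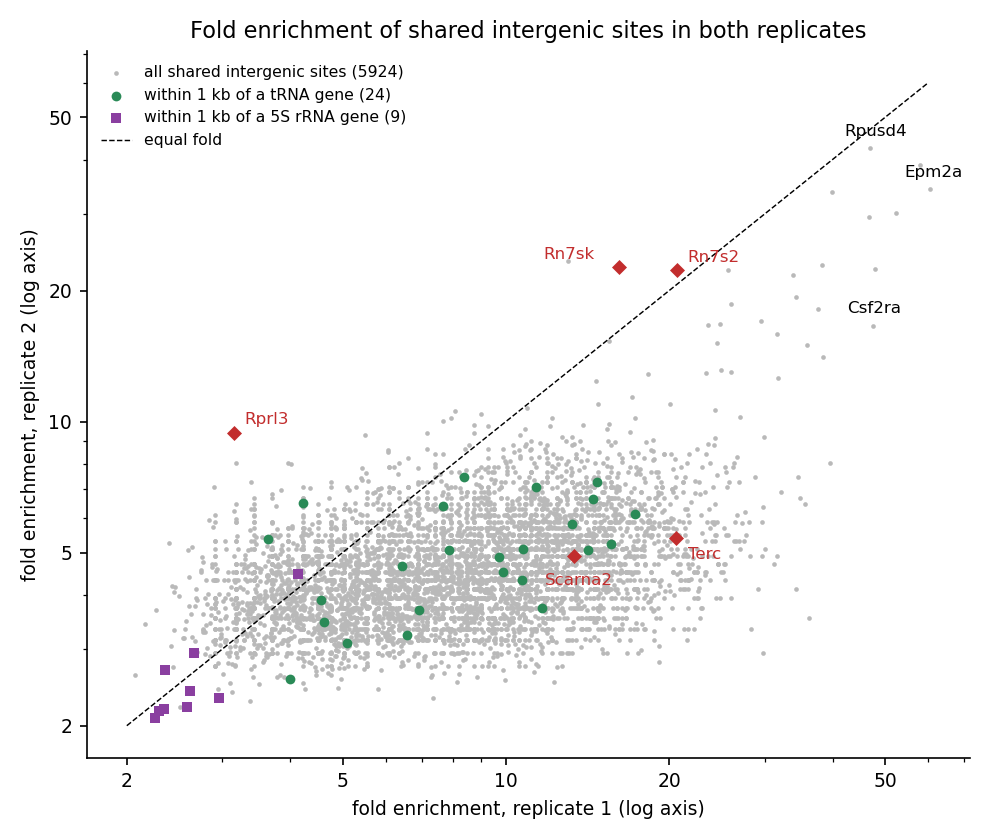
Fold enrichment of each of the 5924 shared intergenic sites in replicate 1 (x axis) and replicate 2 (y axis), both on log axes, with sites at tRNA and 5S rRNA genes and at 5 other small RNA genes marked. Most points lie under the dashed line of equal fold, and of the 5 red diamonds Rn7sk, Rn7s2 and Rprl3 lie above it.

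The 15 sites that ranked highest by fold in both lists lay near genes of many kinds. Beside Rimbp3, a gene active in the testis, the site at chr16:17222214-17222512 had 58.0 and 38.8, with 2117 and 1131 fragments over the summits. The site 32494 bp after the end of Epm2a, the gene of the glycogen phosphatase laforin, had 60.4 and 34.2. After the end of Rpusd4, a pseudouridine synthase gene, a site at chr9:35305233-35305593 had 46.8 and 42.4. Its pileup was 5469 fragments in replicate 1 and 69452 in replicate 2. That pileup was the highest of all shared intergenic sites in replicate 2 and, since all duplicate fragments were kept, how many separate molecules it stands for was not tested.

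Next in rank were sites near Chrm3, a muscarinic receptor gene, with 52.3 and 30.2, near Myl12b, a myosin light chain gene, with 39.9 and 33.6, and near P4ha2, a collagen prolyl hydroxylase gene, with 46.7 and 29.5. Sites near Tcp10c (48.0 and 22.4), Tmem196 (38.2 and 22.9), Mid1 (37.6 and 18.1, beside the pseudogene-classed Erdr1), Rpp21 (33.9 and 21.7), Ly6c2 (34.3 and 19.4), Cspg5 (38.4 and 14.1, over Mir6236) and Gm45871 (31.6 and 15.9) completed the list with 2 sites that flank Csf2ra. At 8 of the 5924 sites the pileup reached 1000 fragments in at least 1 replicate, and at 58 it reached 100 in both.

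Csf2ra encodes the alpha chain of the GM-CSF receptor and was the only gene of the macrophage identity list among the 15. Its site at chr19:61199670-61199858, 17434 bp after its end, had fold enrichments of 47.4 and 16.6 with pileups of 590 and 102. The site at chr19:61266905-61267165, 38632 bp before its start, had 36.0 and 14.96 with pileups of 240 and 97. Both sites were higher in replicate 1.

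Non-coding genes lay at many of the sites. The summit was in or within 1000 bp of a non-coding gene at 1539 of the 5924 sites (25.98%, 24.9 to 27.1%), against 23.6% of all replicate 2 peaks in the zone. Of the 11578 non-coding genes of the zone, 1359 (11.7%) had a shared site. The share was 15.3% for lncRNA genes (827 of 5410), 7.68% for pseudogenes (351 of 4570) and 22.9% for transcribed pseudogenes (62 of 271). Such shares grow with the length of the gene, and densities per Mb do not.

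By density, 4 kinds of small RNA gene stood highest. Shared sites within 1000 bp of rRNA genes were 11.7 times as dense as over the whole zone, those at tRNA genes 5.93 times, those at snoRNA genes 5.35 times and those at miRNA genes 4.22 times. The ratio was 2.66 for transcribed pseudogenes, 1.84 for pseudogenes, 1.36 for lncRNA genes and 1.31 for snRNA genes. All peaks of each replicate, shared or not, gave the same 4 kinds of small RNA gene the 4 highest ratios. These were 6.02 for rRNA, 3.64 for tRNA, 3.01 for snoRNA and 2.92 for miRNA genes in replicate 2, and 2.40, 1.47, 1.79 and 1.83 in replicate 1. Few genes stand behind these ratios. Of the rRNA genes 9 of 44 had a shared site, of the tRNA genes 34 of 262, of the snoRNA genes 34 of 318 and of the miRNA genes 17 of 193.

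**Figure D2:**
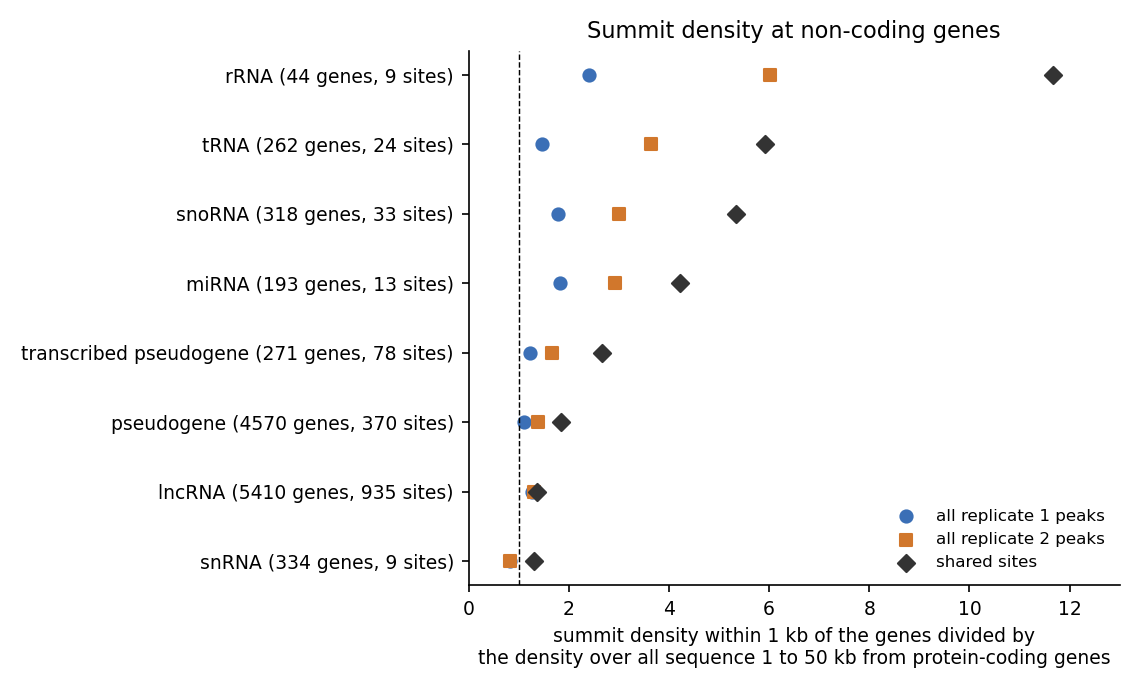
Density of summits within 1 kb of the non-coding genes of the intergenic zone, by gene type, divided by the density over the whole zone (x axis), for all peaks of each replicate and for shared sites. The 4 upper rows, rRNA, tRNA, snoRNA and miRNA, have ratios for shared sites between 4.22 and 11.7, and the replicate 1 point for snRNA is hidden behind that for replicate 2.

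Of the 90 shared sites at small RNA genes 9 had the higher fold enrichment in replicate 2. Replicate 1 was the higher one at 5157 of all 5924 sites (87.1%), so these 9 do not set small RNA genes apart. Of the 9 sites, 3 were at Rn7sk, Rn7s2 and Rprl3. Rn7sk, which makes the 7SK RNA that holds back the elongation factor P-TEFb, had fold enrichments of 16.1 and 22.6, with pileups of 60 and 454 fragments. Rn7s2, which makes a 7SL RNA of the signal recognition particle and has near-identical copies in the genome, had 20.7 and 22.3, with pileups of 100 and 742. Rprl3, a gene annotated as an RNA part of RNase P, had 3.15 and 9.42, with pileups of 11 and 47. For each of these genes the summit of replicate 2 lay inside the annotated gene. The other 6 were at the 5S rRNA genes n-R5s100, n-R5s102 and n-R5s128, at the tRNA genes n-TTtgt3 (4.23 and 6.49) and n-TVcac2 (3.65 and 5.36) and at the snoRNA gene Gm24257 (5.69 and 6.48). Replicate 1 was the higher one at both of the following RNA genes. Terc, the RNA template of telomerase, had 20.6 and 5.39, and Scarna2, a small Cajal body RNA gene, had 13.3 and 4.91.

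Among tRNA genes, 24 shared sites lay at 34 genes, with a median fold enrichment of 9.04 in replicate 1 and 5.07 in replicate 2. By mean percentile of fold the first 3 were at n-TSgct5 near H2bc11, with 14.7 and 7.26, at n-TNgtt14 near Uspl1, with 17.3 and 6.14, and at n-TRtct2 near Dnttip2, with 14.5 and 6.62. The lower-case letters just before the number in these names give the anticodon. The macrophage Fc receptor gene Fcgr3 has an array of tRNA genes before its start, and 5 shared sites lay there between 5988 and 17594 bp from the gene. Their fold enrichments were 4.003, 6.90, 7.05, 5.09 and 5.24 in replicate 1 and 2.56, 3.69, 2.87, 3.09 and 3.55 in replicate 2. Pileups there were high, 177 to 427 fragments in replicate 1 and 74 to 105 in replicate 2. The sites 12289 and 17594 bp from Fcgr3 had no tRNA gene within 1000 bp of the summit. The fold enrichment is taken against a background that includes the surrounding 10000 bp.

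The 5S rRNA genes between Gas8 and Rhou also joined low fold enrichments to high pileups. Each of the 9 shared sites at rRNA genes was in this array. Their median fold enrichment of 2.58 in replicate 1 and of 2.32 in replicate 2 was under the lower quartiles of all 5924 sites (5.28 and 3.73), while their median pileup was 121 and 56 fragments. The site nearest to Gas8, at n-R5s100, was the highest of them with 4.13 and 4.47. The 5S rRNA genes and many tRNA genes are near-identical copies, so which copy a fragment came from is uncertain, and no source used here says how such reads were treated.

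Neighbouring sites were mostly single. With sites joined when their summits were within 12.5 kb, 4595 sites stood alone (77.6%), 964 formed pairs, and 365 (6.16%) lay in 103 groups of 3 or more. The largest group, 10 sites over 32287 bp on chromosome 6 beside Gm40363 and Pdia4, had fold enrichments of 3.40 to 7.06 and 2.59 to 5.08 and pileups of 221 to 479 and 127 to 220. Near Zswim2 on chromosome 2, 7 sites were spaced by 5683 to 5938 bp, each at a pseudogene of its own, and were alike in height, with 9.33 to 11.2 and 5.10 to 7.85. On chromosome 4, 7 sites lay between the zinc finger genes Zfp978 and Zfp982, with 3.06 to 10.7 and 2.83 to 4.51. The genes nearest to the most sites were Gm21119 (14 sites), Gm15319 (9), and Gas8 and Gm40363 (8 each).

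The density of sites varied little with distance to the gene. The zone held 9.94 sites per Mb, from 8.27 at 1 to 2 kb and 8.57 at 2 to 5 kb to 10.9 at 5 to 10 kb, 10.7 at 10 to 20 kb and 9.75 at 20 to 50 kb. All replicate 2 peaks were likewise least dense in the nearest 2 bins, with 32.7 and 32.6 per Mb, and densest at 5 to 10 kb, with 39.2. The median fold enrichment was lowest at 1 to 2 kb, at 6.35 and 4.08 in the replicates, and highest at 20 to 50 kb, at 8.11 and 4.45. The median distance was 15252.5 bp.

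Close to genes the sites were less dense before the start than after the end. Strand was known for 17274 of the 21631 protein-coding genes (79.9%), and 2364 sites lay before a start and 2331 after an end. At 1 to 2 kb the density was 6.58 per Mb before the start and 9.22 after the end, and at 2 to 5 kb it was 6.76 and 10.7. At 20 to 50 kb the values were closer, 9.24 and 10.4. The peaks of each replicate had the same order at 1 to 2 kb, with 26.4 and 36.0 per Mb in replicate 2 and 187 and 245 in replicate 1.

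**Figure D3:**
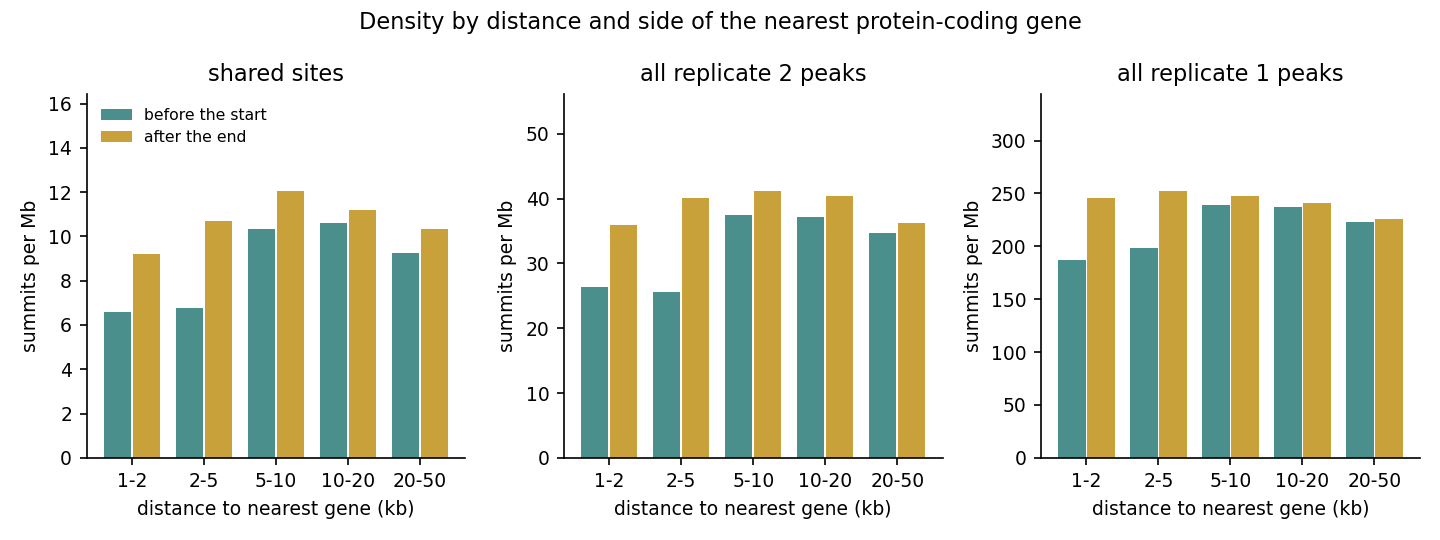
Density of summits per Mb (y axes, each from 0) by distance to the nearest protein-coding gene in kb (x axes) and by side of that gene, for shared intergenic sites, all replicate 2 peaks and all replicate 1 peaks. In all 3 panels the bar before the start is the shorter one in every bin, with the widest gaps at 1 to 5 kb.

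By chromosome the density ran from 7.42 sites per Mb on X, where replicate 1 also had its fewest peaks per Mb (136), to 13.1 on chromosome 4. Large gene families lay on both sides of the values for all genes, 20.6% of genes nearest to a site and 9.94 sites per Mb. Of the 1110 olfactory receptor genes 161 were nearest to a site (14.5%), at 7.15 sites per Mb. Of the 355 vomeronasal receptor genes 107 were (30.1%), at 8.73 per Mb. Of the 400 zinc finger genes named Zfp 89 were (22.3%), at 12.0 per Mb.

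Over all protein-coding genes 4464 of 21631 (20.6%) were the nearest gene of at least 1 site. The forkhead list, of genes for factors related to Foxp3 itself, stood above this share, with 18 of its 28 genes (64.3%, 44.1 to 81.4%) and 31 sites. Like the other lists it was chosen with earlier results of these data known. Its interval therefore describes these 28 genes and is no test of the forkhead family. The listed forkhead genes have long intergenic flanks, with a median of 51.1 kb of zone per gene against 16.6 kb for all genes. Per Mb of that sequence they had 22.3 shared sites against 9.94 for all genes, 57.6 replicate 2 peaks against 36.4 and 294 replicate 1 peaks against 231. Here and in the lists that follow, genes are ranked by the mean over the replicates of a site's percentile of fold enrichment, which need not be the rank in either replicate. The first 3 forkhead genes by this rank were Foxj2 with 13.2 and 7.26, Foxd1 with 14.9 and 6.32 and Foxn3 with 13.4 and 6.26. Foxo1, Foxo3 and Foxp4 were also nearest to sites. Foxo1 had 5.81 and 4.88, Foxo3 had 9.21 and 4.12, and Foxp4 had 6.26 and 5.24. Foxp3 was nearest to none and had only 1.70 kb of zone.

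Genes of macrophages had shared sites near them in moderate number. Of the macrophage identity list 11 of 32 genes were nearest to a site (34.4%, 18.6 to 53.2%), at 14.0 sites per Mb. After Csf2ra, the next in rank were Fcgr1, the high-affinity Fc receptor, with 15.4 and 4.72, and Cebpa, a myeloid transcription factor, with 9.48 and 5.36. The Fcgr1 site lay 33937 bp before the start of that gene and 519 bp from the snRNA gene Gm24830. The 14.0 sites per Mb rest on 19 sites. Fcgr3, 1 of the 11 genes, holds 5 of the 19, all within the span of the tRNA array. At such tRNA genes the copy a fragment came from is uncertain. The Fcgr3 sites 12289 and 17594 bp away had no tRNA gene within 1000 bp. The alternative activation and repair list had 10 of 26 (38.5%, 20.2 to 59.4%), at 17.3 per Mb. Klf4, a transcription factor of alternative activation, had 19.5 and 6.27, and Retnla, a secreted marker of it, had 8.99 and 7.85.

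Socs3, a feedback inhibitor of cytokine signalling, was nearest to 5 sites. The site 5913 bp before its start had 11.9 and 6.05, and that 16647 bp after its end had 11.7 and 5.67. The other 3 sites after its end had 11.5 and 3.74, 4.94 and 3.09, and 6.16 and 4.95. Irf1, a transcription factor of the interferon response, also had 5 sites. That at Mir7671 lay before its start, and 4 lay after its end in the lncRNA gene Gm12216, with fold enrichments of 4.73, 4.23, 7.91 and 12.4 in replicate 1 and 3.58, 6.02, 4.53 and 3.77 in replicate 2. The order of these 4 sites differed between the replicates, since the highest in replicate 1 was the third in replicate 2. At Socs3 the sites 5913 and 16647 bp away were the highest in both.

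**Figure D4:**
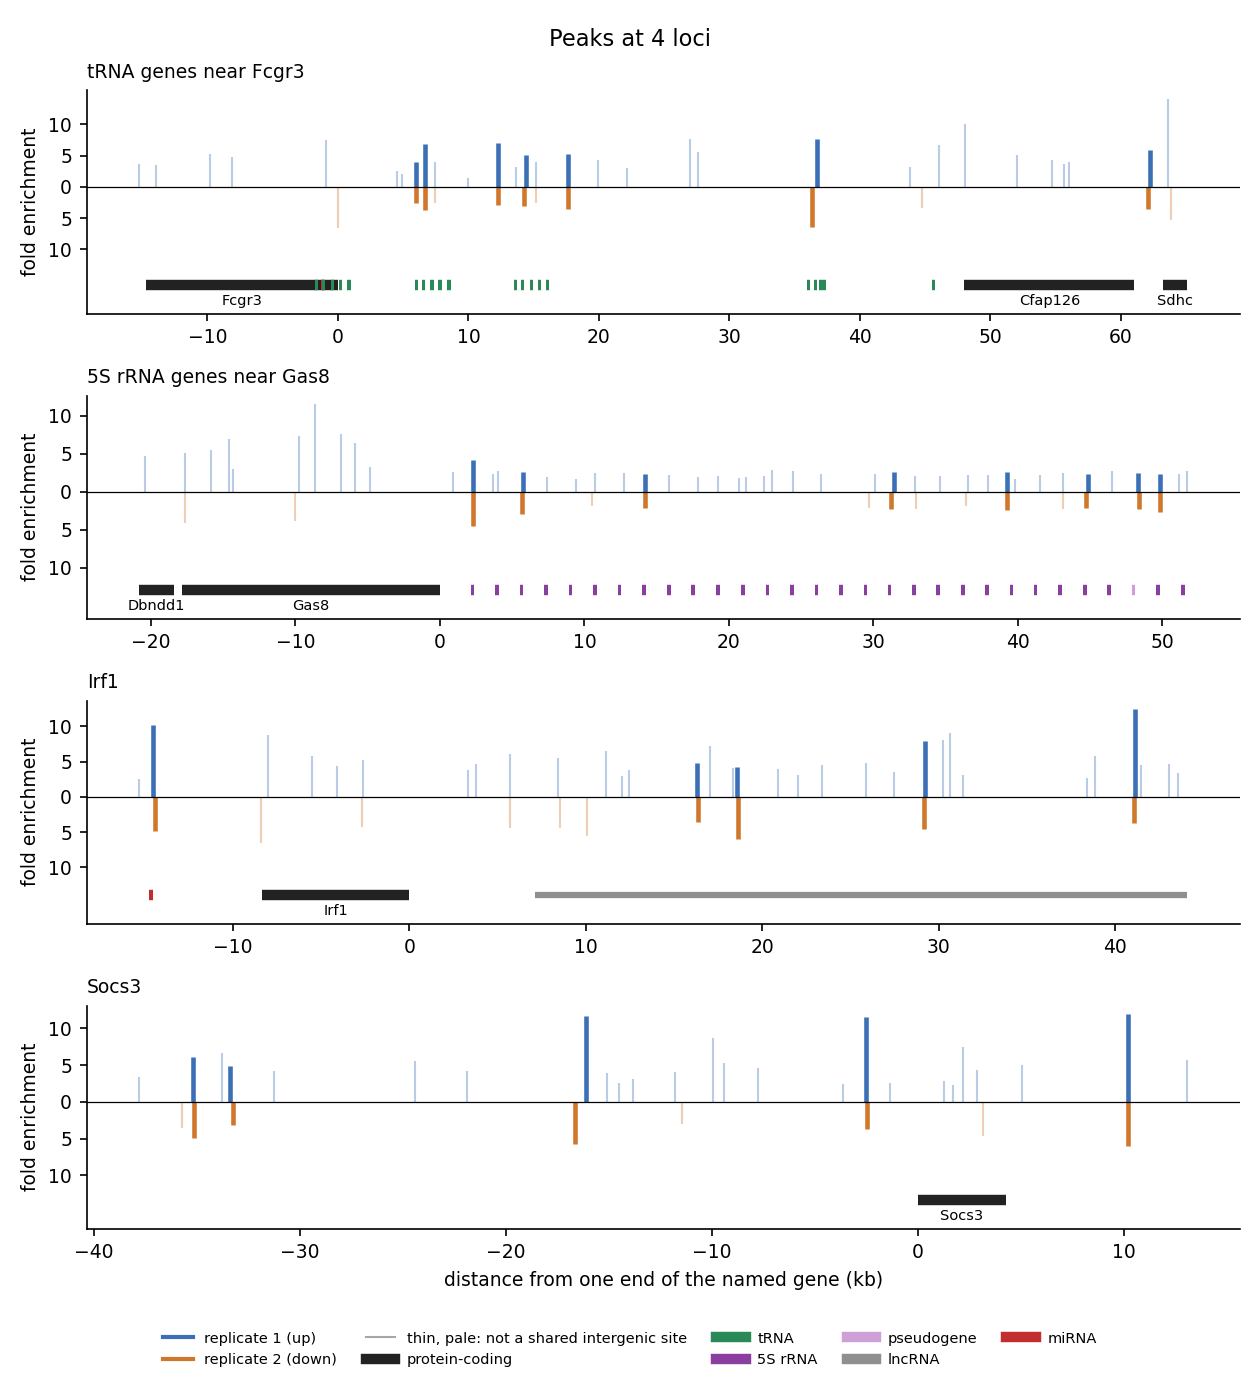
Peaks of replicate 1 (up) and replicate 2 (down) at 4 loci, with fold enrichment on the y axes and distance in kb from one end of the named gene on the x axes; thick bars are shared intergenic sites and the lowest line of each panel shows genes. The Irf1 and Socs3 panels have 5 shared sites each among 32 and 25 replicate 1 peaks, and in the array of 5S rRNA genes the bars are low.

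The interferon list as a whole had 3 of 22 genes nearest to a site (13.6%, 2.91 to 34.9%), the others being Gbp2, with 12.51 and 5.69, and Rsad2, with 5.28 and 3.73. Its 20.3 sites per Mb rest on 7 sites, of which 5 belong to Irf1. The inflammatory list had 9 of 34 (26.5%, 12.9 to 44.4%), at 8.83 per Mb, led by the cytokine gene Il12a with 9.12 and 6.87, the receptor gene Tlr2 with 6.61 and 5.86 and Hmgb1, a danger signal itself, with 9.33 and 4.52.

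For genes of engulfment and digestion the share of genes with a site did not differ from that of all genes beyond its interval, and the densities lay on both sides of 9.94 per Mb. Engulfment of apoptotic cells had 6 of 31 (19.4%, 7.45 to 37.5%), at 7.22 sites per Mb, led by Dock2 with 17.8 and 6.87, Elmo1 with 7.68 and 4.35 and Scarb1 with 13.3 and 3.35. LC3-associated phagocytosis and autophagy had 5 of 29 (17.2%, 5.85 to 35.8%), at 13.02 per Mb, led by Optn with 11.6 and 5.10, Cybb with 9.52 and 5.10 and Rb1cc1 with 14.8 and 3.73. Atg7 had 4 sites before its start, between 6278 and 45885 bp away, with 3.37 to 5.89 in replicate 1 and 2.28 to 4.06 in replicate 2. Each was under the median of all shared intergenic sites in both replicates (7.84 and 4.32). These 4 are among the 10 sites on which the 13.02 per Mb rests. Rubcn, a component of LC3-associated phagocytosis, was nearest to none and had 4.63 kb of zone. The lysosome list had 5 of 30 (16.7%, 5.64 to 34.7%), at 13.8 per Mb, led by Atp6v1h with 21.2 and 5.89 and Laptm5 with 7.58 and 4.30.

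Lists of other cells gave shares of a similar range. The genes of the Foxp3 programme of regulatory T cells had 4 of 28 (14.3%, 4.03 to 32.7%), at 5.44 sites per Mb, the lowest density of the 13 lists. Tcf7 had 6.89 and 6.68, Lef1 had 8.46 and 4.52, and Il10 had 8.73 and 4.12. T cell markers had 4 of 20 (20%, 5.73 to 43.7%), at 9.34 per Mb, led by Cd28 with 7.93 and 5.10, Bcl11b with 16.7 and 3.73 and Cd2 with 5.82 and 4.32. B cell and neutrophil markers had 7 of 20 (35%, 15.4 to 59.2%), led by Pax5 with 18.5 and 5.42, Ebf1 with 23.8 and 4.32 and Csf3r with 7.92 and 4.71. Their density of 16.7 per Mb was higher than that of the macrophage identity list, but rests on 8 sites. All peaks were also denser there than in the macrophage list, with 324 against 281 per Mb in replicate 1 and 52.3 against 47.1 in replicate 2. Genes of other tissues had 7 of 33 (21.2%, 8.98 to 38.9%), at 11.2 per Mb, led by Neurod1 with 12.4 and 5.40, Olig2 with 10.1 and 4.91 and Myod1 with 10.4 and 4.86. Housekeeping genes had 2 of 30 (6.67%, 0.818 to 22.1%), at 10.9 per Mb, which were Actb with 7.81 and 5.11 and Ywhaz with 11.9 and 3.93. Except for the forkhead list, the interval of every list held the share of all genes, 20.6%.

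**Figure D5:**
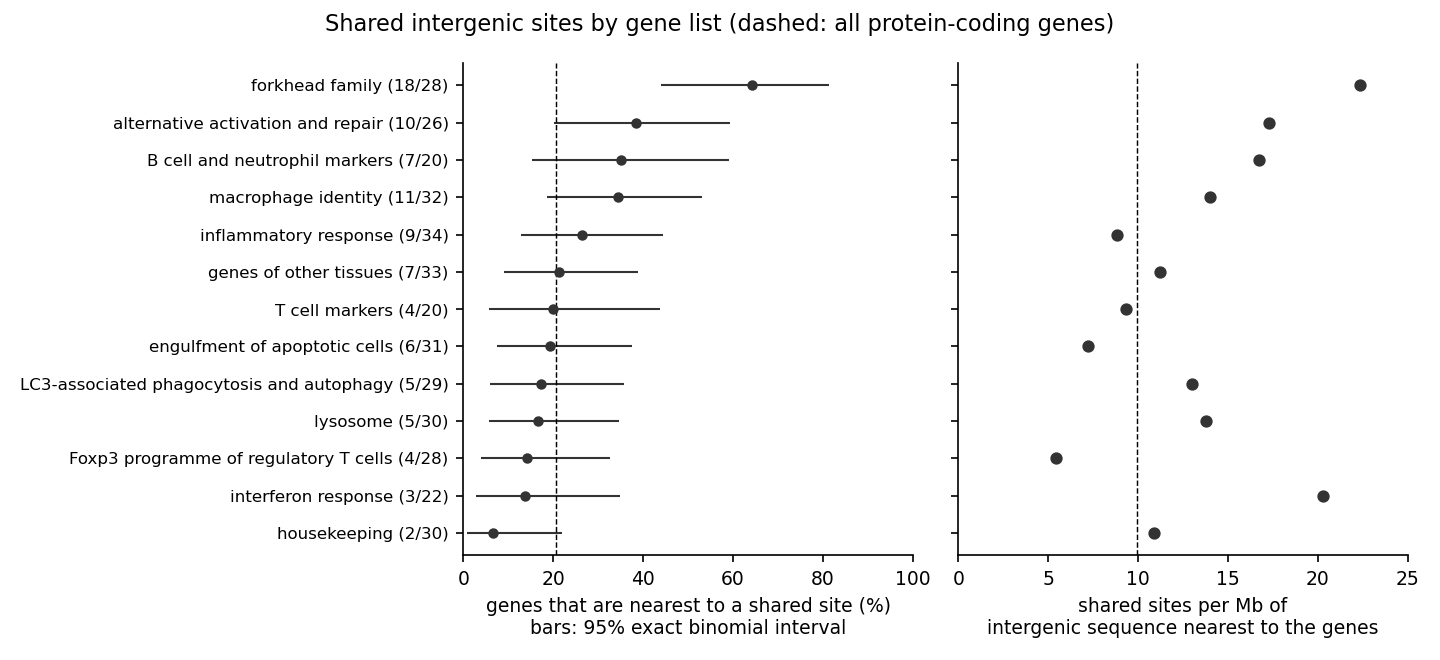
Share of the genes of each list that are the nearest gene of a shared intergenic site (left, %, with exact 95% binomial intervals) and shared sites per Mb of the intergenic sequence nearest to the genes (right), with all protein-coding genes as the dashed line. The forkhead list stands at 64.3% and 22.3 per Mb, and the 2 measures order the other lists differently.

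The labelled cell type could be checked only by peaks at gene ends, which do not measure expression. Peaks in both replicates were found at 8 of 12 macrophage markers, at 4 of 10 T cell, 3 of 5 B cell, 3 of 6 neutrophil and 2 of 4 fibroblast markers. The same share over all protein-coding genes was not worked out, so these counts do not tell the cell types apart. Peaks were common at gene starts in general. Of all 32619 RefSeq promoter windows, a measure unlike the gene ends, 50.2% had a replicate 1 peak and 35.5% a replicate 2 peak. Itgam, Lyz2, Adgre1 and Mpeg1, of the macrophage markers, had no replicate 2 peak at their ends. Of the T cell markers, neither did Cd3d, Cd3e, Cd3g, Lck, Zap70 or Foxp3. Replicate 1 had a peak at 10 of 12 macrophage markers and at all 10 T cell markers, Foxp3 among them. It also had one at 4 of 5 B cell, 6 of 6 neutrophil and 3 of 4 fibroblast markers.

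At the bounds of the rule, median fold enrichment in replicate 1 was somewhat higher just outside than just inside. Sites 1 to 1.5 kb away had medians of 6.35 and 4.05, against 7.07 and 4.21 at 0.5 to 1 kb. At 45 to 50 kb they were 8.20 and 4.48, against 8.73 and 4.52 at 50 to 55 kb. With an overlap of 50 to 55% they were 6.61 and 4.17, against 7.06 and 4.12 at 45 to 50%. The single sites nearest to each bound differed more, in both directions. The last site inside the inner bound was 1005 bp from Wfdc6a, with 4.48 and 3.58, and the first outside it was 1000 bp from Trib1, with 3.05 and 3.38. At the outer bound the site inside was 49947 bp from Scgb2b13-ps, with 13.2 and 3.73, and the one outside was 50045 bp from Gm40862, with 15.3 and 5.64. A pair near Incenp overlapped by 50% and was kept, with 3.70 and 5.50, and a pair near Atp23 overlapped by 49.9% and was not, with 8.02 and 4.78.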

How the data were processed

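CUT&RUN peak lists of 2 Foxp3 libraries were used. The IgG library was not analysed here. Per the file headers, the authors called peaks on each library separately with MACS 2.1.1.20160309 at a q-value cutoff of 0.01, without a control and with all duplicate fragments kept. CASAVA 1.4 and build mm10 are named in the submitters' processing notes, and no source used here names an aligner. As deposited, the pileup (signal) counts the fragments that cover a summit and is unscaled. The fold enrichment, as deposited, is a ratio of that pileup to a background of the same library (genome-wide, or within 10000 bp of the peak). Each peak was deposited with −log10 of its p-value and of its q-value.

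Peaks were paired, placed against 21631 protein-coding genes of a RefSeq table (GRCm38.p6) and counted with Python 3.11.15 and pandas 2.3.3. The pairing, placing and density code was tested on simulated data. Densities divide summits by the sequence in the same distance class. Intervals are 95% exact binomial (Clopper-Pearson) and cover counting error only. With 2 libraries of 1 group no test between conditions could be made. Strand came from the RefSeq promoter table.

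The members, the 13 gene lists (363 of 364 entries matched) and the settings were chosen with earlier results of these data known. Named sites were the 15 strongest by mean percentile of fold, the 3 highest genes of each list, the genes with the most sites, the largest groups, the strongest at lncRNA and miRNA genes, those at the bounds, and Rubcn and Foxp3. One gene named by this rule is not reported here. The tRNA, rRNA and other small RNA genes, the other Fox genes, Fcgr3, Atg7, the gene families, the chromosomes and the printed promoters were chosen after their values were seen. A word search around the summits had been planned, and was run on RefSeq promoter windows because no genome sequence was used.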

Additional observations from a re-analysis of the deposited data

How the results depend on the processing

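The count of 5924 sites moved with the overlap asked for, to 10146 at 1 bp and 1541 at 80% of both lengths, to 1662 with a fold enrichment of at least 5 in both lists, and to 2896 with only the strongest replicate 1 peaks, as many as replicate 2 holds. Their share of all shared sites (19.04%) was 19.9% at 1 bp, 16.9% at 80%, 17.4% with −log10 q of at least 5 in both, 13.7% with the fold minimum, 16.1% with the strongest replicate 1 peaks, 18.2% with an inner bound of 2000 bp, 13.3% with an outer bound of 25000 bp and 17.9% without groups of 3 or more neighbours, an alternative chosen after seeing the data. Replicate 1's median fold enrichment (7.84) was 7.08 at 1 bp, 9.52 at 80%, 8.73 with the q minimum, 11.1 with the fold minimum and 11.5 with the strongest peaks, and replicate 2's (4.32) was 4.18, 4.71, 4.71, 5.89 and 4.84. A fold minimum raises a median of folds by construction.

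The median distance (15252.5 bp) was 16000 bp at 80% overlap, 16320 bp with the fold minimum, 16111.5 bp with the strongest peaks, 16096 bp with the 2000 bp bound and 9961 bp with the 25000 bp bound. Genes nearest to a site (4464) fell to 1400, 1509 and 2507 at 80%, with the fold minimum and with the strongest peaks. Sites at non-coding genes (25.98%) were 24.7% at 80%. The tRNA genes with a site (34) were 57 at 1 bp, 14 at 80% and 16 with either the fold minimum or the strongest peaks, and the forkhead genes with a site (18) were 10 at 80% and 9 with the fold minimum. Taking the position from the replicate 1 summit, or leaving out peaks of 1000 or more fragments, moved none of the 9 values beyond its interval or by over 1.5 times.

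With the peaks of 1 replicate alone by the distance rule, the sites numbered 21693 without replicate 1 and 137608 without replicate 2. In the same order the share was 22.9 and 24.8%, the genes 9975 and 16456, the sites at non-coding genes 23.6 and 21.6%, the tRNA genes 74 and 145, and the forkhead genes 21 and 25. The median fold enrichment was 3.93 in replicate 2 alone and 4.81 in replicate 1 alone. Beyond what the alternatives fix by construction, the cause was not tested. No paired analysis was possible because the only group with peak lists was Foxp3. With no IgG values, sites that any antibody would give cannot be told apart from others, and depth limits the sites to those of at least 10 and 13 fragments.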
